A study of Homo sapiens with 6 samples.

Results

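GAS6, PROS1, AXL, MERTK and TYRO3 encode the ligands and the receptors of TAM signalling. They were taken by gene symbol from the table of 17039 genes measured in MDA-MB-231-BR and MDA-MB-231 cells, and all 5 were found and tested. GAS6 and PROS1 were higher in MDA-MB-231-BR cells, by 2.15 and 4.39 times in mean FPKM. Of the receptors, MERTK was higher by 1.35 times, while AXL and TYRO3 were higher in MDA-MB-231 cells by 1.21 and 1.36 times. FPKM counts sequenced fragments relative to transcript length and to the mapped fragments of a library, so levels can be set beside each other between genes.

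GAS6 and protein S, the product of PROS1, are secreted proteins that carry a Gla domain, which is modified by a vitamin K-dependent carboxylase and then binds phosphatidylserine on the outer face of apoptotic or activated cells. Their other end binds and activates the receptor tyrosine kinases TYRO3, AXL and MERTK, which act in the clearance of dead cells, the damping of innate immune responses, cell survival and migration. GAS6 is known to bind all of these receptors, whereas protein S activates TYRO3 and MERTK and is best known as an anticoagulant cofactor of activated protein C.

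The series compared 3 libraries of MDA-MB-231-BR cells with 3 libraries of MDA-MB-231 cells to find genes that differ between a brain-seeking line and the line it came from. MDA-MB-231 is an established human triple-negative breast cancer line, and MDA-MB-231-BR is its brain-metastatic derivative, which the sample labels and the plots name without the prefix MDA-MB. Both lines were cultured in DMEM with fetal bovine serum and penicillin-streptomycin, and MDA-MB-231-BR cells also received G418. Messenger RNA was selected with oligo(dT) beads and read as paired ends of 100 bases. The medium, the source of the cells and the line cannot be told apart, because each line was grown in 1 medium only, and MDA-MB-231-BR was obtained as a gift whereas the parental line came from a cell bank. Each line stands for itself, not for a set of independently derived lines. The series' design text calls the 3 libraries of a line independent, and the samples' cell line labels carry a number that rises with the replicate while the titles name 2 lines, so p-values measure the spread between these libraries, which may be in part technical.

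Summed FPKM ran from 465020 to 472007 in MDA-MB-231-BR and from 486937 to 496420 in MDA-MB-231, and 11166 to 11178 against 10785 to 10806 genes reached 1 FPKM. The lowest correlation of log2 values across genes within a line was 0.997 and the highest between lines was 0.902. The read depth is unknown. Most genes differed between the lines at this spread: 77.3% of the 13465 genes tested passed an adjusted p of 0.05, with 44.4% higher and 32.9% lower in MDA-MB-231-BR. All 5 TAM genes passed, 3 higher and 2 lower, which is to be read against that background. Libraries of MDA-MB-231-BR and MDA-MB-231 were apart for each of the 5, as for 78.4% of all genes tested. Under the study's criteria for a differentially expressed gene (DEG), which add a log2 fold change over 1 in either direction and here a mean of at least 1 FPKM in both lines, 6.45% of genes passed, 4.68% higher and 1.77% lower. GAS6 and PROS1 met these criteria, both higher in MDA-MB-231-BR.

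By level, breast marker transcripts were mostly mesenchymal in both lines, though some luminal markers had values. VIM, a mesenchymal intermediate filament, had means of 2550 FPKM in MDA-MB-231-BR and 2310 FPKM in MDA-MB-231. Of the 6 luminal markers CDH1, the epithelial cadherin, and PGR stayed below the level needed for testing, and ESR1 did not pass. The other 3 were higher in MDA-MB-231-BR. FOXA1 rose from 0.84 to 5.47 FPKM, EPCAM from 5.06 to 8.7 FPKM and GATA3 from 0.433 to 1.24 FPKM. The 5 mesenchymal markers summed to 3570 to 3630 FPKM in MDA-MB-231-BR and 3650 to 3790 FPKM in MDA-MB-231, with 3 higher and 2 lower in MDA-MB-231-BR. The lower ones were LGALS1, galectin-1, with means of 488 and 988 FPKM, and the hyaluronan receptor CD44, with means of 181 and 251 FPKM. The 4 macrophage and microglia markers with values (PTPRC, CD14, CSF1R, AIF1), cells in which MERTK and AXL are well known, summed to 0.11 to 0.30 FPKM in MDA-MB-231-BR and 0.12 to 0.23 FPKM in MDA-MB-231, and none reached the level for testing. The summed markers of endothelial cells, which express GAS6 and PROS1, were 0.41 to 0.50 FPKM against 0.21 to 0.24 FPKM, and those of astrocytes 0.41 to 0.49 FPKM against 0.20 to 0.42 FPKM. Fibroblast markers summed to 0.50 to 0.55 FPKM against 0.88 to 0.99 FPKM. The sums of some lists were higher in MDA-MB-231-BR, as the ligands were. The luminal markers summed to 16.2 to 16.8 FPKM against 6.55 to 7.61 FPKM, the neuron markers to 6.13 to 7.01 FPKM against 0.58 to 0.61 FPKM, and the oligodendrocyte markers to 20.7 to 21.3 FPKM against 12.8 to 14.3 FPKM, almost all of it MBP, while the myelin gene MOG was too low to test. Of the neuron markers SYT1, a synaptic vesicle protein, rose from 0.38 to 6.35 FPKM, and SNAP25, of the synaptic fusion machinery, fell by 0.99 on the log2 scale. None of the markers with values was at 0 in all libraries, and ITGAM, CX3CR1, NEFL, OLIG2 and DCN had no values. The part of these transcripts in the TAM values was not tested.

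The promoters of both ligand genes and of AXL, the most abundant receptor transcript, are printed below because these genes carry the largest fold changes and the highest level. Each is the 250 bases upstream of the RefSeq gene start on GRCh38.p14, 5′ to 3′ on the strand of the gene, and capitals mark GGGCGG or its reverse complement CCGCCC, the core that binds Sp1-type factors.
GAS6 (chr13:113864077-113864326, minus strand): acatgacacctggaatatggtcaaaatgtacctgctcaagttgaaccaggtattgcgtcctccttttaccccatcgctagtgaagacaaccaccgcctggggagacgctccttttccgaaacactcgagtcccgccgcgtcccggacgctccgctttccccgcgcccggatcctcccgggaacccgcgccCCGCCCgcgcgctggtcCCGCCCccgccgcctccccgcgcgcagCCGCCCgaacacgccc
PROS1 (chr3:93973897-93974146, minus strand): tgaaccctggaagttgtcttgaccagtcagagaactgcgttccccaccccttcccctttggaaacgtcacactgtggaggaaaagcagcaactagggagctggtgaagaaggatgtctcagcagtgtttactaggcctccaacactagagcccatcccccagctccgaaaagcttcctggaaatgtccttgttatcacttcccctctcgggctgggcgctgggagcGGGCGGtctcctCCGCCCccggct
AXL (chr19:41218973-41219222, plus strand): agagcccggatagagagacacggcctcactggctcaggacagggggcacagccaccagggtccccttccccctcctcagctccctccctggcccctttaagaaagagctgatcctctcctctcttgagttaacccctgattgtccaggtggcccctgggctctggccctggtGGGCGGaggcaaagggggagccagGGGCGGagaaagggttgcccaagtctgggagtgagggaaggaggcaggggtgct
Over windows of 300 bases that add 50 bases past the start, GAS6 held 3 matches to GGGCGG on either strand, PROS1 held 2 and AXL held 2 in the first of its 2 listed windows and 0 in the second. MERTK held 5, and TYRO3 held 3 in the first of its windows and 0 in the second. Of the 35116 promoter windows in the same table, 45.0% held the motif. TGACTCA, the AP-1 site, was in none of the TAM windows and in 4.95% of all windows. GGAATG, the TEAD site, was found in the second AXL window only, and in 14.0% of all windows. The windows differed in base composition. GAS6 held 42 CG dinucleotides, MERTK 32, the first TYRO3 window 49 and PROS1 18, against a median of 14 over all windows, whereas the first AXL window held 7. The second windows went the other way, with 17 for AXL and 10 for TYRO3. The RefSeq starts used here differ from the GENCODE gene spans given below. The PROS1 window lies wholly inside its span, which on the minus strand starts at 93980003. The TYRO3 windows and the second AXL window also lie wholly inside the spans of their genes. Which start these cells use was not tested. Matches describe the letters in these windows and do not show binding.

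GAS6, the ligand with the highest affinity for AXL, lies at chr13:113820549-113864067 on the minus strand in GENCODE 29 (GRCh38). It was measured at 43.26, 44.8 and 44.7 FPKM in MDA-MB-231-BR and at 19.47, 20.19 and 21.95 FPKM in MDA-MB-231. Every MDA-MB-231-BR library was above every MDA-MB-231 library, and the lines were separated by far more than the spread within either. The means were 44.3 ± 0.862 FPKM in MDA-MB-231-BR and 20.5 ± 1.28 FPKM in MDA-MB-231 (SD, n = 3 each). The log2 fold change, on the scale of log2(FPKM + 0.1) used for all log2 fold changes given here, was 1.11 (SE 0.043, limma adjusted p = 6.9e-09), and 13.0% of the genes tested had a larger change in either direction. GAS6 thus moved from percentile 76.6 to 78.8 of all genes in MDA-MB-231 to percentile 88.5 to 88.9 in MDA-MB-231-BR. The study took GAS6 into its candidate list on these same libraries, so its direction is not independent evidence.

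GAS6 shares sequence with an antisense gene, GAS6-AS1. Of the 100-base windows of its longest coding transcript, 1.97% also occur in GAS6-AS1, and 8.07% of its 50-base windows occur in another gene. The library protocol is not stated to mark strand, so reads from these stretches cannot be told apart. GAS6-AS1 was not analysed here, nor was GAS6-DT, a divergent noncoding gene whose start lies 91 bases from that of GAS6.

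PROS1 lies at chr3:93873033-93980003 on the minus strand. It was measured at 7.82, 7.81 and 7.32 FPKM in MDA-MB-231-BR and at 1.52, 1.88 and 1.83 FPKM in MDA-MB-231. The lowest MDA-MB-231-BR library was well above the highest MDA-MB-231 library. The means were 7.65 ± 0.286 and 1.74 ± 0.195 FPKM (SD, n = 3 each), and the log2 fold change was 2.08 (SE 0.083, limma adjusted p = 8.3e-09). It was the largest change among the 5 genes, with 4.55% of the genes tested changing more. PROS1 has a pseudogene copy, PROS2P. Of the 100-base windows of the PROS1 coding transcript, 1.35% were shared with another gene, and of its 50-base windows 10.1%. How reads from such stretches were assigned is not given in the sources used here, so its level is uncertain there.

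AXL, the receptor most often linked to invasion in mesenchymal carcinoma cells, lies at chr19:41219203-41261766 on the plus strand. It was measured at 234.79, 235.15 and 233.35 FPKM in MDA-MB-231-BR and at 283.8, 283.58 and 283.19 FPKM in MDA-MB-231. The libraries of a line lay close together and those of the lines were apart, with MDA-MB-231-BR the lower. The means were 234 ± 0.952 and 284 ± 0.309 FPKM (SD, n = 3 each). The log2 fold change was -0.27 (SE 0.019, limma adjusted p = 4.2e-07), and 61.9% of the genes tested changed more. With quantile normalization between libraries the fold change of AXL was -0.09 (limma adjusted p = 0.0016), which is -0.03 relative to the median of all genes. AXL ranked between 255 and 263 among all genes in MDA-MB-231-BR and between 240 and 245 in MDA-MB-231.

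MERTK, a receptor best known for the uptake of dead cells by macrophages and retinal pigment epithelium, lies at chr2:111898479-112029561 on the plus strand. Its FPKM was 9.03, 9.49 and 9.01 in MDA-MB-231-BR and 6.96, 6.72 and 6.75 in MDA-MB-231. All 3 libraries of MDA-MB-231-BR were higher. The means were 9.18 ± 0.272 and 6.81 ± 0.131 FPKM (SD, n = 3 each). On the log2 scale the fold change was 0.42 (SE 0.044, limma adjusted p = 9.6e-06). Of the genes tested, 45.4% changed more.

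TYRO3, the receptor best known from neurons, lies at chr15:41557675-41583586 on the plus strand. Its FPKM was 4.64, 4.21 and 4.29 in MDA-MB-231-BR and 5.99, 5.86 and 6.05 in MDA-MB-231. All 3 libraries of MDA-MB-231-BR were lower. The means were 4.38 ± 0.229 and 5.97 ± 0.0971 FPKM (SD, n = 3 each). On the log2 scale the fold change was -0.44 (SE 0.056, limma adjusted p = 4.4e-05), and 44.1% of the genes tested changed more. Of the 100-base windows of its longest coding transcript 0.0493% were shared with another gene, and of its 50-base windows 5.43%, in part with the pseudogene TYRO3P. AXL and MERTK shared none of their 100-base windows.

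In both lines AXL stood far above the other members and GAS6 second, as the plot of the 5 genes by library shows. In MDA-MB-231-BR the order of FPKM was AXL, GAS6, MERTK, PROS1, TYRO3, and in MDA-MB-231 it was AXL, GAS6, MERTK, TYRO3, PROS1. PROS1 thus stood last in MDA-MB-231 and above TYRO3 in MDA-MB-231-BR. No pair of neighbours in either order overlapped in any library of that line. A lower level in these bulk samples could come from fewer cells that carry a transcript or from less of it per cell, which cannot be told apart.

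**Figure D1:**
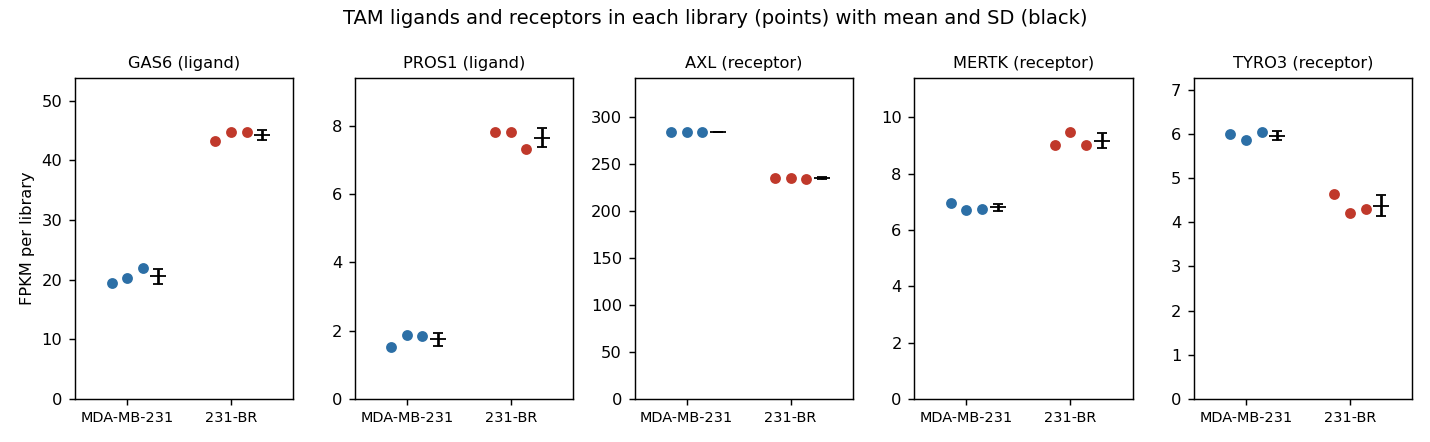
FPKM (vertical axis, from 0, a separate scale for each gene) of GAS6, PROS1, AXL, MERTK and TYRO3 in each library of MDA-MB-231 (blue) and MDA-MB-231-BR (red), with the mean and SD of 3 libraries in black beside the points. GAS6, PROS1 and MERTK are higher in every MDA-MB-231-BR library, at 44.3, 7.65 and 9.18 FPKM on average, and AXL and TYRO3 are lower in every one.

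Because FPKM is per length, ligand and receptor transcripts can be summed. The summed ligand transcripts, GAS6 plus PROS1, were 51.9 ± 0.77 FPKM in MDA-MB-231-BR and 22.3 ± 1.4 FPKM in MDA-MB-231 (SD, n = 3 each), a ratio of 2.33. The summed receptor transcripts, AXL plus MERTK plus TYRO3, were 248 ± 1.2 and 296 ± 0.40 FPKM, a ratio of 0.837. Receptor transcripts outnumbered ligand transcripts in all 6 libraries.

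The ratio of summed ligand to summed receptor FPKM was 0.2056, 0.2114 and 0.2109 in MDA-MB-231-BR and 0.07073, 0.07452 and 0.08034 in MDA-MB-231. The lines did not overlap. Its mean was 2.78 times higher in MDA-MB-231-BR (0.209 ± 0.0032 against 0.0752 ± 0.0048), a difference of 1.48 on the log2 scale (exact 2-sided permutation test, p = 0.1, the smallest p that 3 against 3 libraries allow). The ratio of GAS6 to AXL alone was 0.189 ± 0.0040 in MDA-MB-231-BR and 0.0724 ± 0.0046 in MDA-MB-231 (SD, n = 3 each). These are ratios of transcripts and say nothing of the proteins at the cell surface or in the medium.

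GAS6 made up 84.69%, 85.15% and 85.93% of the summed ligand FPKM in MDA-MB-231-BR and 92.76%, 91.48% and 92.3% in MDA-MB-231. PROS1, which changed more, held the rest, 14.7 ± 0.63% in MDA-MB-231-BR and 7.82 ± 0.65% in MDA-MB-231 (SD, n = 3 each). The share of GAS6 was lower by 6.92 percentage points in MDA-MB-231-BR (exact 2-sided permutation p = 0.1, the smallest possible). GAS6 remained the main ligand transcript in every library.

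AXL made up 94.5%, 94.49% and 94.61% of the summed receptor FPKM in MDA-MB-231-BR and 95.64%, 95.75% and 95.68% in MDA-MB-231. Its share was lower by 1.15 percentage points in MDA-MB-231-BR (exact 2-sided permutation p = 0.1, the smallest possible), but by 0.0183 percentage points with quantile normalization (exact permutation p = 0.7). The rest was divided differently in the lines. MERTK held 3.70 ± 0.099% in MDA-MB-231-BR and 2.30 ± 0.041% in MDA-MB-231, and TYRO3 1.77 ± 0.091% and 2.01 ± 0.033% (SD, n = 3 each). The ratio of MERTK to TYRO3 was 2.10 ± 0.15 in MDA-MB-231-BR and 1.14 ± 0.024 in MDA-MB-231.

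**Figure D2:**
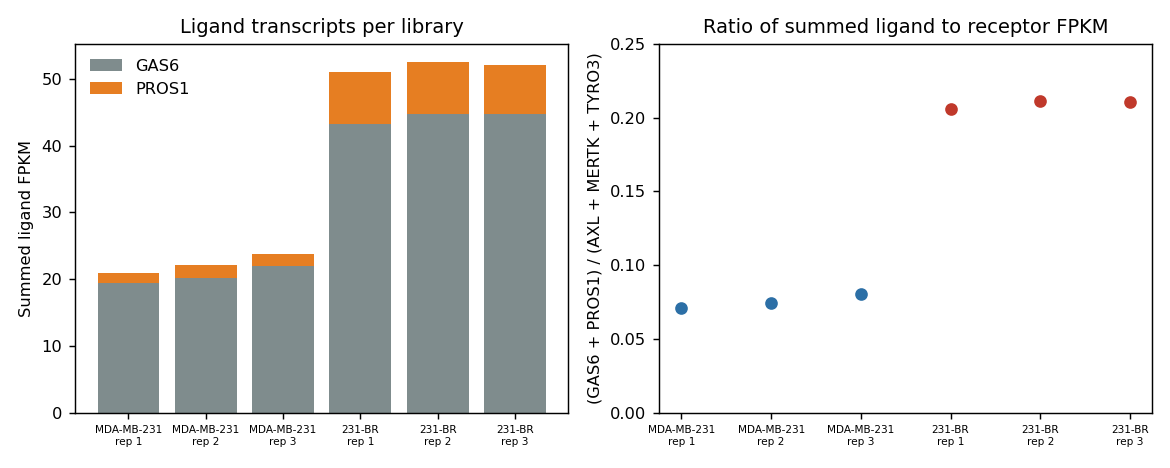
Left, FPKM of GAS6 (grey) and PROS1 (orange) stacked for each library, with a vertical axis from 0. Right, the ratio of summed ligand to summed receptor FPKM in each library of MDA-MB-231 (blue) and MDA-MB-231-BR (red), where the MDA-MB-231-BR libraries lie between 0.2056 and 0.2114 and the MDA-MB-231 libraries between 0.07073 and 0.08034.

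AXL was the most abundant receptor tyrosine kinase transcript in all 6 libraries. This was read from a list of 58 receptor tyrosine kinases written after the TAM values were known, of which 55 had values. AXL held 35.2 to 35.6% of their summed FPKM in MDA-MB-231-BR and 47.8 to 48.0% in MDA-MB-231. The ephrin receptor EPHA2 followed with means of 101 and 110 FPKM. The difference in the share of AXL came with higher levels of other receptors in MDA-MB-231-BR as well as with the lower level of AXL. EGFR, the epidermal growth factor receptor, rose from 33.3 ± 2.91 to 91.2 ± 3.02 FPKM (SD, n = 3 each), and 25 receptor tyrosine kinases reached 1 FPKM in each MDA-MB-231-BR library against 19 in each MDA-MB-231 library. Of the 37 that could be tested, 24 were higher and 8 lower in MDA-MB-231-BR, so that 86.5% passed against 77.3% of all genes, of which 44.4% were higher and 32.9% lower. Their median log2 fold change was 0.82 against 0.08 for all genes tested. AXL and TYRO3 were thus among the 8 that fell, and MERTK among the 24. In rank, MERTK stood at 11 to 12 in MDA-MB-231-BR and at 10 in MDA-MB-231, so that its own rise did not bring it up the order. TYRO3 stood at 14 and at 11 to 12.

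**Figure D3:**
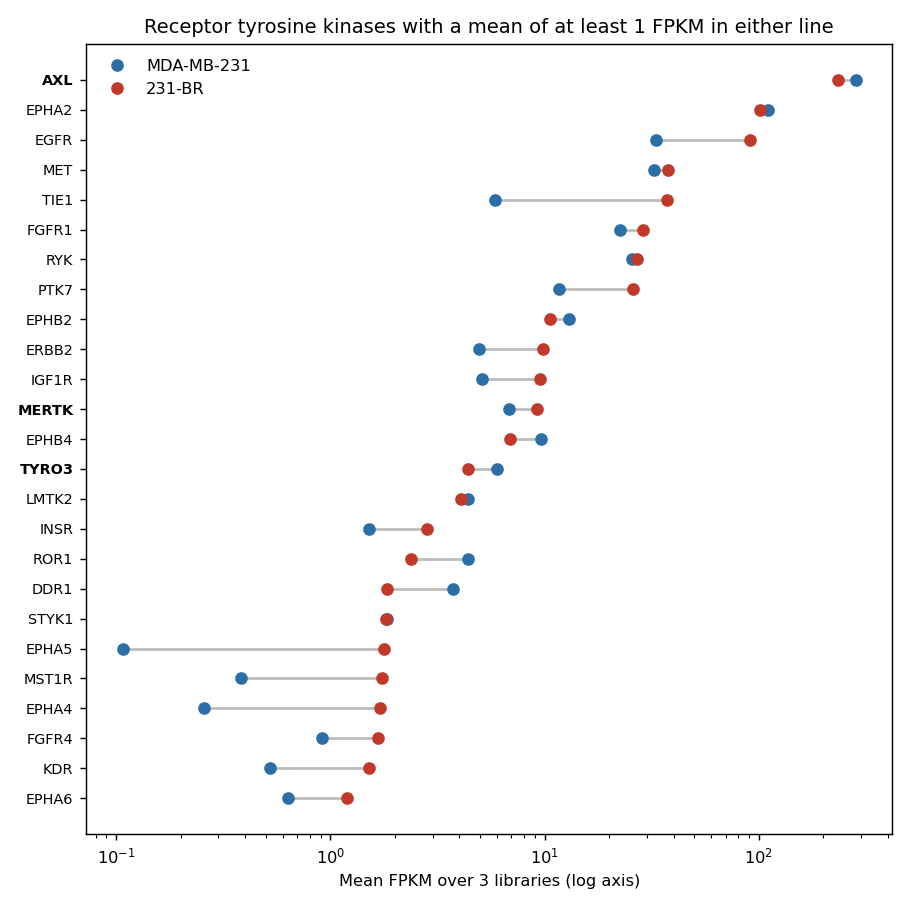
Mean FPKM over 3 libraries (horizontal log axis) of the receptor tyrosine kinases with a mean of at least 1 FPKM in either line, MDA-MB-231 in blue and MDA-MB-231-BR in red, ordered by the mean in MDA-MB-231-BR, with the TAM receptors in bold. AXL is first in both lines at 234 and 284 FPKM, and the lines differ more for EGFR than for any TAM receptor.

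The genes around the TAM axis were described by 11 lists with 126 genes, of which 102 could be tested. Of these, 44 were higher and 44 lower in MDA-MB-231-BR, and their median log2 fold change was -0.02 against 0.08 for all genes tested. The share that passed, 86.3%, is to be read against the 77.3% of all genes. Under the DEG criteria 9 were higher and 3 lower, where 4.68% of all genes were higher and 1.77% lower. Genes are named below for their large fold changes within a list.

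Most genes of ligand maturation were lower in MDA-MB-231-BR, some of them by little, while the ligands were higher. Of 8 genes tested, 1 was higher and 6 were lower, against 44.4% and 32.9% of all genes. Their median log2 fold change was -0.32, and 2 of the lower genes met the DEG criteria, where 1.77% of all genes did as lower. FURIN, the proprotein convertase that processes vitamin K-dependent precursors, was at 6.98, 7.36 and 7.3 FPKM in MDA-MB-231-BR and at 22.49, 22.77 and 22.48 FPKM in MDA-MB-231, a log2 fold change of -1.63 (SE 0.037, limma adjusted p = 1.6e-10). NQO1, a quinone reductase that can reduce vitamin K, fell from 269 ± 4.68 to 104 ± 3.45 FPKM (SD, n = 3 each). AIFM2, the vitamin K reductase also called FSP1, and VKORC1L1, a vitamin K epoxide reductase, fell by 0.65 and 0.48 on the log2 scale. GGCX, the carboxylase that modifies the Gla domain itself, was at 18.9 ± 0.158 and 19.2 ± 0.349 FPKM (SD, n = 3 each), with a fold change of -0.02 on the log2 scale (limma adjusted p = 0.49). It was named although it did not pass, after its values were seen, since it is the enzyme on which the ligands depend. VKORC1 and CALU, also named after their values were seen, fell by only 0.11 and 0.17 on the log2 scale. The libraries of the lines overlapped for VKORC1.

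Other Gla proteins had 5 tested genes of 12, with 2 higher and 1 lower. The share that passed was 60.0%, below the 77.3% of all genes. The transmembrane Gla proteins PRRG4 and PRRG1 rose, PRRG4 from 0.187 ± 0.0569 to 2.60 ± 0.20 FPKM and PRRG1 from 3.44 ± 0.126 to 9.58 ± 0.416 FPKM (SD, n = 3 each). PROZ, which encodes protein Z, was lower, with means of 0.17 and 0.37 FPKM. Among the partners of protein S in coagulation, 2 of 5 tested genes were higher and 1 lower, again 60.0% against 77.3%. C4BPB, the chain of C4b-binding protein that binds protein S, was at 9.85, 9.48 and 10.48 FPKM in MDA-MB-231-BR and at 0.53, 0.49 and 0.56 FPKM in MDA-MB-231, a log2 fold change of 4.0 (SE 0.077, limma adjusted p = 5.8e-11). It thus rose together with PROS1 and by more. THBD, thrombomodulin, rose from 6.56 ± 0.263 to 16.4 ± 0.709 FPKM, and TFPI, the tissue factor pathway inhibitor for which protein S is a cofactor, fell by 0.40 on the log2 scale.

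Exposure of phosphatidylserine, the lipid that both ligands bridge to the receptors, is set by scramblases and flippases. Of 13 tested genes 8 were higher and 4 lower, against 44.4% and 32.9% of all genes. None met the DEG criteria, against 6.45% of all genes. ANO6, a calcium-activated scramblase, fell from 16.7 ± 0.654 to 8.39 ± 0.388 FPKM, whereas XKR9, of the family of apoptotic scramblases, rose from 3.74 to 7.21 FPKM. The flippase ATP8A1 and the flippase subunit TMEM30B rose at low levels, from 0.593 and 0.02 to 1.67 and 0.217 FPKM. Their means in MDA-MB-231 were thus under the 1 FPKM that the DEG criteria ask of both lines. Other bridges and receptors for phosphatidylserine had 8 tested genes of 16, with 4 higher and 4 lower. All 8 thus passed, where 77.3% of all genes did. EDIL3, a bridging protein that binds integrins, rose from 9.38 ± 0.473 to 29.2 ± 0.635 FPKM (SD, n = 3 each), while ITGAV, the alpha-v integrin subunit it binds, fell by 1.25 on the log2 scale, from 24.8 to 10.4 FPKM. The scavenger receptors LRP1 and SCARF1 rose by 2.2 and 1.77 on the log2 scale. LRP1 was low, with means of 0.273 FPKM in MDA-MB-231 and 1.61 FPKM in MDA-MB-231-BR, and did not meet the DEG criteria. SCARF1 met them, rising from 2.28 to 8.04 FPKM. Of the other proposed TAM ligands, LGALS3, galectin-3, rose from 22.8 ± 0.187 to 47.8 ± 0.925 FPKM (SD, n = 3 each). TUB, the tubby protein, was listed at 0 in all MDA-MB-231-BR libraries and at 0.24 ± 0.0436 FPKM (SD, n = 3) in MDA-MB-231.

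The receptors are shed from the cell surface by ADAM proteases. All 12 tested genes of this list passed, 5 higher and 7 lower, where 77.3% of all genes passed. TIMP3, an inhibitor of ADAM17 and ADAM10, was at 113.06, 111.52 and 114.23 FPKM in MDA-MB-231-BR and at 0.45, 0.42 and 0.27 FPKM in MDA-MB-231, which made it the largest change of all 11 lists, with a log2 fold change of 7.90 (SE 0.12, limma adjusted p = 1.8e-11). It did not meet the DEG criteria because its mean in MDA-MB-231 was under 1 FPKM. The gamma-secretase subunits PSEN2 and APH1B rose by 0.97 and 0.93 on the log2 scale, and TIMP1, a metalloproteinase inhibitor, fell by 0.88. The sheddases themselves, chosen here by role after their values were seen, fell by 0.19 (ADAM10) and 0.54 (ADAM17) on the log2 scale.

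Adaptors and effectors downstream of the receptors divided almost evenly in number, with 11 higher and 10 lower of 25 tested, against 44.4% and 32.9% of all genes. Under the DEG criteria 3 were higher and 0 lower. The DEGs among all genes also leaned to the higher side, at 4.68% higher against 1.77% lower. PIK3R2, a regulatory subunit of phosphoinositide 3-kinase, rose from 26.6 ± 0.342 to 54.9 ± 0.672 FPKM (SD, n = 3 each), and the docking protein GAB2 rose from 2.66 to 5.73 FPKM. ELMO1, an adaptor for engulfment, was lower, with means of 0.19 and 0.447 FPKM. Of the genes of the innate immune output of TAM receptors, 1 of 5 tested was higher and 2 were lower. The share that passed was 60.0%, against 77.3% of all genes. SOCS1, an inhibitor of cytokine signalling, rose by 0.66 on the log2 scale, and IFNAR2, the interferon receptor subunit, and SOCS3 fell by 0.23 and 0.10.

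Among 14 transcriptional regulators linked to AXL, 4 were higher and 8 lower, against 44.4% and 32.9% of all genes. The share that passed was 85.7%, against 77.3% of all genes, and the median log2 fold change was -0.21. TEAD2, a partner of YAP1, rose from 0.543 ± 0.162 to 6.71 ± 0.419 FPKM (SD, n = 3 each). HIF1A, the hypoxia-inducible factor, fell from 92.9 to 48.2 FPKM, TEAD3 from 16.8 to 8.92 FPKM and FOSL2, an AP-1 subunit, from 32.4 to 18.5 FPKM. AXL itself fell by less than any of these 3. Of 6 receptor kinases known to pair with TAM receptors or to be transactivated with them, 5 were tested and all 5 were higher. Their median log2 fold change was 1.15, the value of ERBB3. It was 0.82 for the 37 receptor tyrosine kinases tested, of which 24 were higher and 8 lower, and 0.08 for all genes. EGFR was at 94.14, 91.21 and 88.11 FPKM in MDA-MB-231-BR and at 34.93, 35.08 and 29.97 FPKM in MDA-MB-231, a log2 fold change of 1.45 (SE 0.056, limma adjusted p = 6.5e-09). ERBB2 rose from 4.95 to 9.88 FPKM, and KDR and ERBB3 rose at low levels, to 1.52 and 0.583 FPKM.

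**Figure D4:**
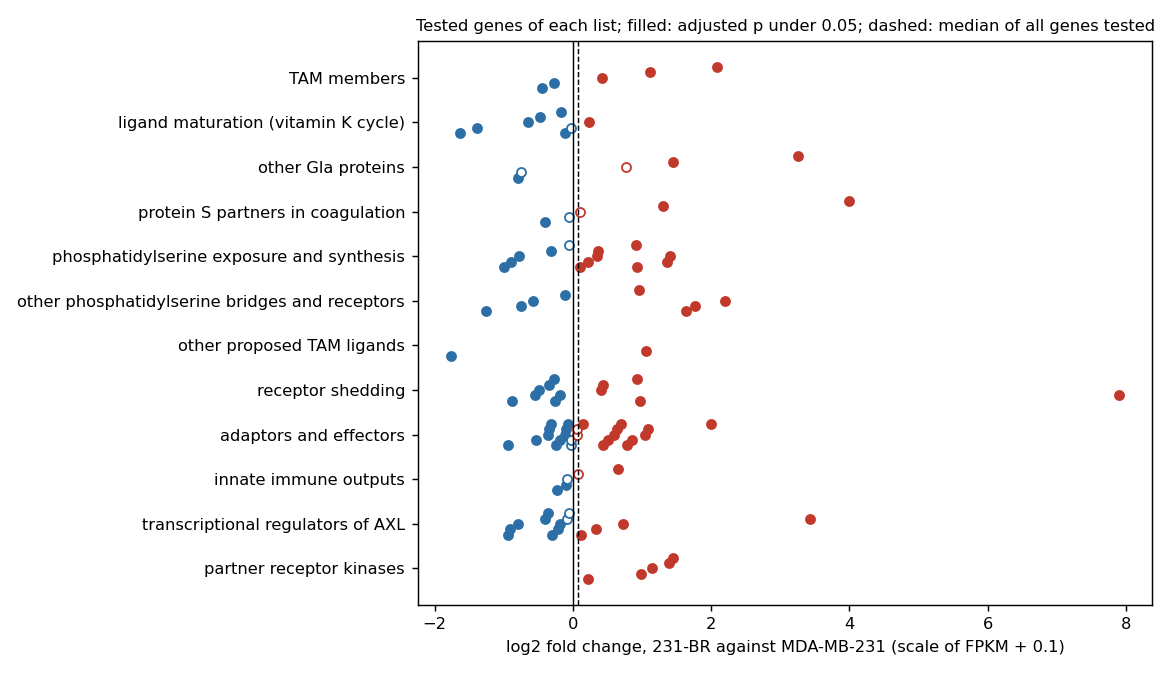
Log2 fold change (horizontal axis, MDA-MB-231-BR against MDA-MB-231, on the scale of FPKM + 0.1) of each tested gene of the TAM members and of the 11 lists, red above 0 and blue below, filled where the adjusted p was under 0.05. The dashed line is the median of all genes tested, 0.08; ligand maturation lies mostly to its left, and the partner receptor kinases lie wholly to its right.

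Genes next to the TAM genes on the chromosome were compared with them to see whether a member moved with its neighbourhood. For each member, up to 20 genes on either side with a mean of at least 1 FPKM were taken in the gene order of RefSeq. Counts of higher and lower neighbours are to be read against 44.4% higher and 32.9% lower of all genes tested. GAS6 lies near the end of chromosome 13, and its 25 neighbours had a median log2 fold change of -0.49, with 20 lower and 3 higher in MDA-MB-231-BR. GAS6 at 1.11 was above all of them except the next gene, the noncoding LINC00452 at 4.32, and its neighbour on the other side, TMEM255B, was at 0.92. Of the 25 neighbours, 3 changed more than GAS6 in either direction. MERTK likewise rose among neighbours that fell. Of its 40 neighbours on chromosome 2, 34 were lower and 2 higher, with a median of -0.32, and 1 of the 40 was above MERTK, while 17 changed more than MERTK in either direction. The neighbours of PROS1 on chromosome 3 had a median of 0.15, with 24 higher and 6 lower, and 4 of 40 were above PROS1. The number that changed more than PROS1 in either direction was also 4.

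AXL and TYRO3 were set beside their neighbours in the same way. The 40 neighbours of AXL on chromosome 19 had a median of -0.06, with 12 higher and 15 lower, where 44.4% and 32.9% of all genes were. Of these, 30 were above AXL, and 17 changed more than AXL in either direction. The 40 neighbours of TYRO3 on chromosome 15 had a median of -0.18, with 6 higher and 20 lower. Of these, 34 were above TYRO3, and 7 changed more than TYRO3 in either direction. The median of all 11090 genes that could be placed was 0.06.

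**Figure D5:**
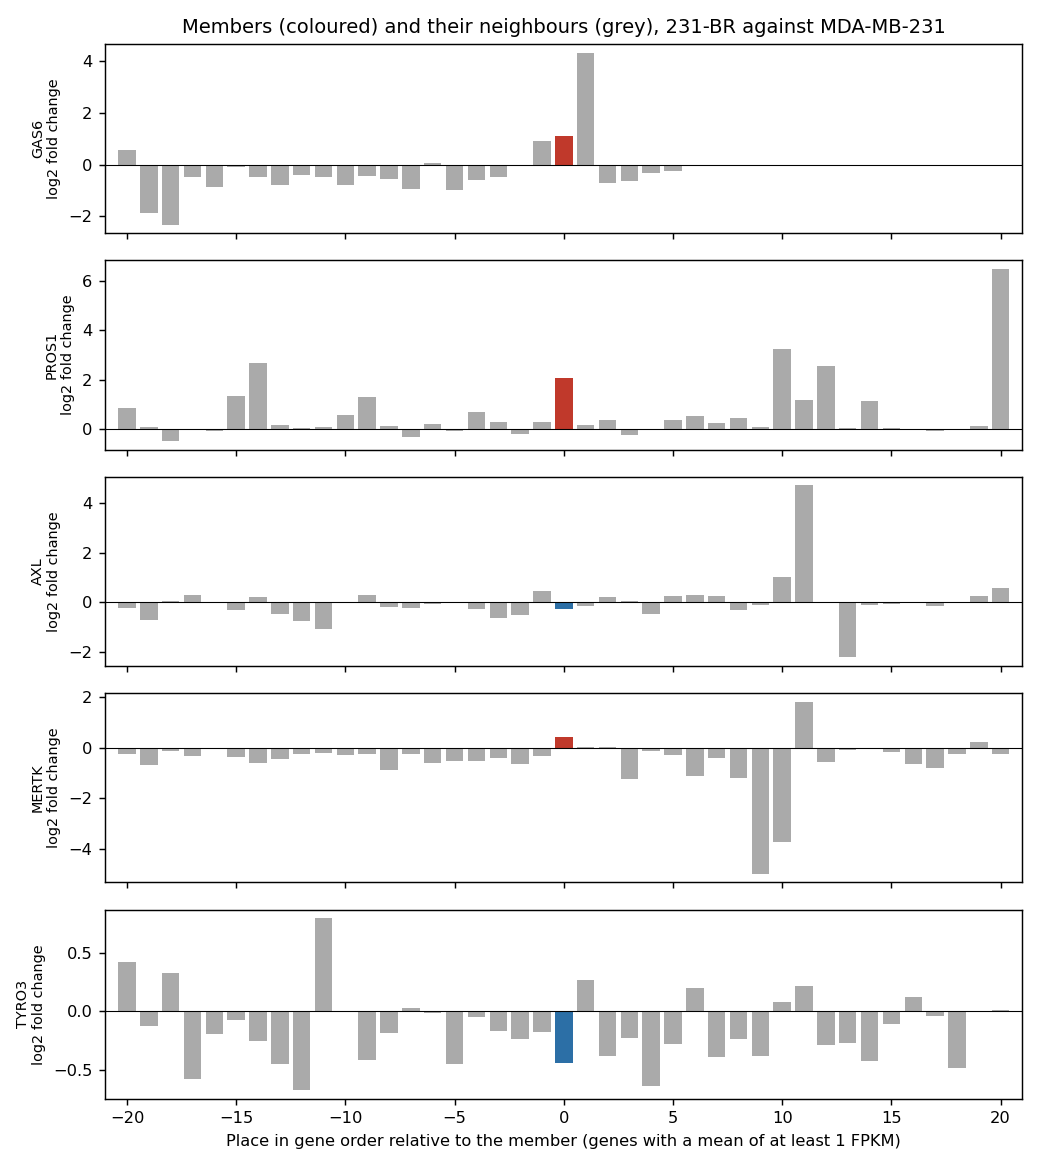
Log2 fold change, MDA-MB-231-BR against MDA-MB-231 (vertical axis, a separate scale for each panel), of each member (coloured, at place 0) and of up to 20 genes with a mean of at least 1 FPKM on either side (grey), by place in gene order. GAS6 at 1.11 and MERTK at 0.42 stand above rows of mostly negative bars, whose medians are -0.49 and -0.32.

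The genes whose pattern over the 6 libraries was most like that of a member were found by the root mean square difference of centred log2 values among 11123 genes. For GAS6 these were PNPLA6, ACAA2 and IGFBP4, at distances of 0.013, 0.018 and 0.023, and 249 genes lay within 0.1. For PROS1 they were CYBB, GPR1 and EMP2, at 0.053, 0.060 and 0.062, with 12 genes within 0.1. For AXL they were OCIAD1, PSMA2 and CCT4, at 0.008, 0.010 and 0.011, with 2327 genes within 0.1. The pattern of PROS1 was thus shared by few genes and that of AXL by very many. MERTK was nearest to IFT140, GIPC1 and ACAT1, at 0.013, 0.018 and 0.020, with 1709 genes within 0.1. Near TYRO3 lay ZNF512 and KDM6B, at 0.015 and 0.019, with 1405 genes within 0.1. With libraries of 2 lines such likeness mostly reflects an equal fold change.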

How the data were processed

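The 6 libraries were of poly(A)-selected RNA, sequenced on the BGISEQ-500 platform. The authors filtered the reads, and the submitters' processing notes name HISAT2 2.0.4, Bowtie2 2.2.5 and GRCh38.p12. The deposited values are FPKM per gene, 1 value for each library. The 6 files of single samples equalled the columns of the joint table. Since read counts were not used here, the depth and its counting error are unknown, and the count model of the study was replaced by limma.

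FPKM was tested as log2(FPKM + 0.1) for the 13465 genes with a mean of at least 0.1 FPKM over the 6 libraries, with limma 3.58.1 (lmFit, eBayes with a trend) in R 4.3.3, and p-values were adjusted by Benjamini-Hochberg over these genes. Shares and ratios were compared by exact 2-sided permutation over libraries (scipy 1.17.1). The test was run on simulated data before use. Alternatives were the pseudocount, the filter on low values, the scaling between libraries, the variance trend, a replicate block and each library left out. The replicate numbers did not pair the libraries and were not used. Shared sequence was counted on GENCODE 29 transcripts. Promoters and gene order came from RefSeq GRCh38.p14.

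The TAM genes and the lists were chosen with earlier results of these data known. Named were the 5 members, in each pathway list the 4 tested genes with the largest absolute log2 fold change at an adjusted p under 0.05, and the 3 genes nearest in pattern to each member. Beside these stand the genes the text marks as chosen by role or named after their values were seen. A few genes that this rule names are not reported here. No column of the table was left out.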

Additional observations from a re-analysis of the deposited data

How the results depend on the processing

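All 5 TAM genes kept an adjusted p under 0.05 (limma) and their direction under each of the 15 alternatives run. GAS6 and PROS1 met the DEG criteria in 16 of 17, and with a log2 fold change over 1.5 required, 1 gene, PROS1, met them. Log2 fold changes ranged from 1.02 to 1.17 for GAS6, from 1.66 to 2.17 for PROS1, from -0.36 to -0.09 for AXL, from 0.28 to 0.49 for MERTK and from -0.65 to -0.37 for TYRO3. Leaving out 1 library at a time gave 1.07 to 1.15, 1.99 to 2.13, -0.28 to -0.27, 0.40 to 0.44 and -0.48 to -0.41. It also gave 83 to 88 pathway genes past the threshold against 88 with all libraries, and differences of -1.19 to -1.12 points in the AXL share, -7.27 to -6.64 points in the GAS6 share and 1.44 to 1.53 in the log2 ligand to receptor ratio, at a smallest possible exact permutation p of 0.2.

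Scaling moved the median of all genes from 0.08 to -0.06 (quantile normalization), 0.15 (equal sums) or 0 (median of ratios), and the share of higher genes among those past the threshold from 57.4% to 45.7% with quantile normalization, 50.3% with median of ratios and 63.2% with equal sums. DEGs numbered 630 higher and 238 lower as reported, 956 and 283 with equal sums, 523 and 302 with median of ratios, 458 and 356 with quantile normalization and 433 and 188 with a pseudocount of 1. Relative to the median of all genes GAS6 was at 1.03, PROS1 at 2.0, AXL at -0.35, MERTK at 0.35 and TYRO3 at -0.52 as reported, and AXL at -0.03 with quantile normalization. The cause was not tested.

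Libraries with the same replicate number correlated at 0.087, -0.04 and -0.106 in their deviations, under the 0.1 needed to call them paired. A replicate block left 5 TAM genes past the threshold, 2 as DEGs and 90 pathway genes, moved the count over all genes from 10406 to 10502, and gave the shares and the ratio an exact permutation p of 0.25, the smallest it allows. FPKM holds no depth, so counting error for low genes such as TUB or PROZ is unknown.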
